A study of Homo sapiens with 6 samples.

Results

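Heterogeneous nuclear ribonucleoproteins (genes HNRNP) and serine/arginine-rich splicing factors (genes SRSF) were examined in 6 libraries of polyadenylated RNA. All came from MDA-MB-231, a widely used human cell line from a triple-negative breast cancer, with a mesenchymal character. Members were chosen by symbol alone: every row whose symbol starts with HNRNP, or with SRSF and a digit. This gave 36 of the 23228 genes in the files, 24 HNRNP and 12 SRSF symbols. The 3 shSCUBE3 libraries came from cells given lentivirus with a short hairpin RNA against SCUBE3, a gene for a secreted and cell-surface glycoprotein, and the 3 scramble libraries from cells given a scrambled hairpin. Both groups were kept under puromycin for a week, as the series' design text states. The number of hairpins and of separate cultures is not given in the sources used here. The p-values thus cover the spread among these 6 libraries and no more, and that spread may be technical.

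hnRNP proteins coat nascent transcripts. They package introns, often hold back splice sites, and take part in export, stability and translation. SR proteins carry RNA recognition motifs and a tail of arginine-serine repeats. They bind exonic enhancers, help to recruit U1 and U2 particles, and are switched by phosphorylation. Both families control their own and each other's RNA, in part by splicing in exons that send the transcript to nonsense-mediated decay, and several of them are known to be altered in breast cancers.

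Reads in genes ran from 21348509 to 25520901 per library. The targeted transcript was not reduced: SCUBE3 had 99, 107 and 101 reads in shSCUBE3 libraries and 96, 91 and 80 reads in scramble libraries (log2 fold change 0.03 ± 0.14, standard error; adjusted p = 0.871 by edgeR), with the sign reversed without scramble replicate 3 (-0.05). Directions below are therefore those of the labels. The labels mention a western blot, but no protein values were among the data used here. The MDA-MB-231 markers VIM, CD44, EGFR, AXL, CAV1 and MSN were all read and summed to 6751 to 6869 CPM (reads per 1000000 reads in genes) in shSCUBE3 and 9120 to 9540 CPM in scramble libraries (4 lower and 2 higher). The luminal list (ESR1, PGR, GATA3, ERBB3, KRT18, FOXA1) summed to 244 to 251 CPM in shSCUBE3 and 313 to 332 CPM in scramble libraries, mostly KRT18, with 4 lower and 1 higher of 5 tested and ESR1 and PGR at 0 reads in shSCUBE3 libraries. FOXA1, a luminal transcription factor, had 0.0542 ± 0.0245 CPM in shSCUBE3 and 21.4 ± 1.58 CPM in scramble libraries, while GATA3, another, had 15.8 ± 0.348 CPM in shSCUBE3 and 5.81 ± 0.120 CPM in scramble libraries. A list of leukocyte markers summed to 161 to 171 CPM in shSCUBE3 and 278 to 285 CPM in scramble libraries, mostly CD68, with 1 lower and 1 higher of 2 tested. The higher one was the monocyte marker CD14, at 6.31 ± 0.447 CPM in shSCUBE3 and 0.230 ± 0.124 CPM in scramble libraries, and PTPRC, the defining leukocyte marker, stood at 0.148 ± 0.0225 CPM in shSCUBE3 and 0.131 ± 0.0357 CPM in scramble libraries (SD, n = 3 each). The part of these differences in the results below was not tested. In RNA of a whole culture, less RNA per cell and fewer cells that carry it cannot be told apart.

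HNRNP and SRSF transcripts were mostly less abundant in shSCUBE3 than in scramble libraries. Together they held 9476 ± 46.8 CPM in shSCUBE3 and 15781 ± 249 CPM in scramble libraries (SD, n = 3 each), or 0.948% of all reads in genes in shSCUBE3 and 1.58% in scramble libraries. HNRNP genes summed to 6968 ± 38.9 CPM in shSCUBE3 and 12341 ± 206 CPM in scramble, and SRSF genes to 2508 ± 8.75 CPM in shSCUBE3 and 3440 ± 43.2 CPM in scramble. The sums of the 2 groups lay far apart for both families, and the HNRNP sum was the one with the larger relative difference.

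Of the 36 members, 31 had enough reads to be tested, 27 of them were lower in shSCUBE3 libraries, 2 were higher (HNRNPL and HNRNPK) and 2 did not pass the threshold (HNRNPUL2 and HNRNPH2), by edgeR's quasi-likelihood test at a Benjamini-Hochberg adjusted p under 0.05. The lower share was 87.1% of the tested members, where 42.5% of all 13606 tested genes were lower, and the higher share 6.45%, where 43.4% of all genes were higher. The 2 groups did not overlap in CPM for 29 of the 31 members, against 85.9% of all genes. The median log2 fold change of the tested members was -0.59, against 0.01 for all tested genes. Of the HNRNP genes, 16 were lower, 2 higher and 2 not called among 20 tested, with a median of -0.88. All 11 tested SRSF genes were lower, with a median of -0.44, though 3 of them (SRSF3, SRSF9 and SRSF11) lost the call under other settings given with the SR genes. A log2 fold change below -1 was reached by 7 of 20 HNRNP and 0 of 11 SRSF genes, and by 13.8% of all genes. Against a null of a 1.5-fold change rather than no change, 14 members were lower and 1 was higher, where the same test called 21.6% of all genes lower and 24.3% higher.

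**Figure D1:**
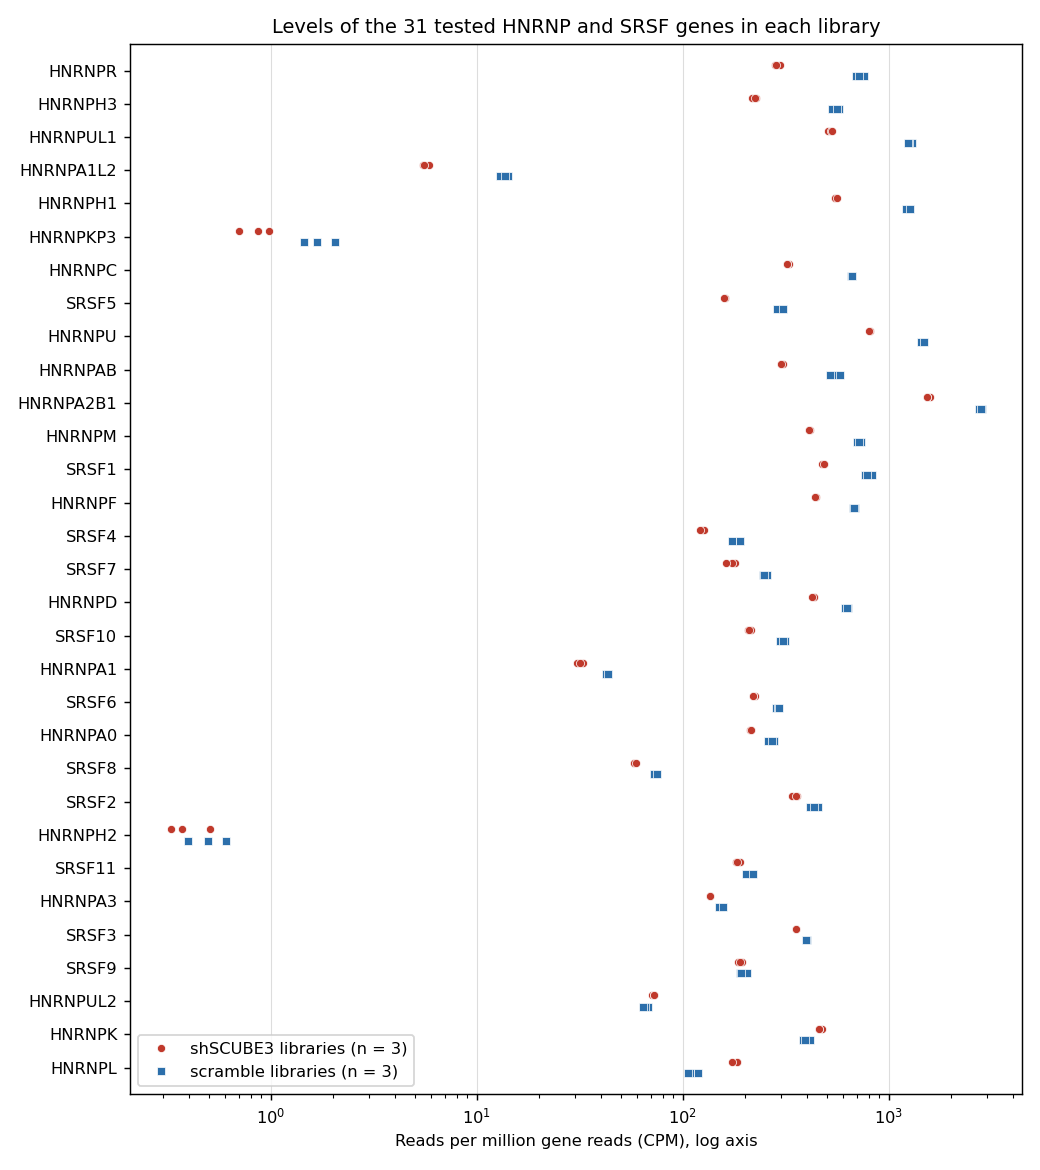
Level of each tested HNRNP and SRSF gene in CPM (log axis), ordered from the most negative log2 fold change at the top to the most positive at the bottom. Circles are the 3 shSCUBE3 and squares the 3 scramble libraries. The circles lie left of the squares for most genes, and right of them for HNRNPUL2, HNRNPK and HNRNPL at the bottom.

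Of the members, 5 could not be tested. HNRNPA1P10, a processed pseudogene of HNRNPA1, HNRNPCL1, a relative of HNRNPC, and the read-through transcript HNRNPUL2-BSCL2 had 0 reads in every library. For reads that can be assigned to them, this leaves room for up to 0.0404 CPM in shSCUBE3 and 0.0440 CPM in scramble libraries. That limit is 3 reads over a group and covers counting error only. Of the short windows of the HNRNPUL2-BSCL2 transcript, 98.8% lie also in an overlapping gene. In a gene at another locus lie 88.4% of those of HNRNPA1P10 and 58.7% of those of HNRNPCL1. Reads from such windows may stand outside the gene counts, so 0 reads does not bound the RNA of these genes. SRSF12, a relative of SRSF10, had 2 reads in shSCUBE3 replicate 2 and 0 in every other library. The pseudogene HNRNPA3P1 had 4, 4 and 5 reads in shSCUBE3 and 3, 5 and 2 reads in scramble libraries.

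The A/B group holds the core packaging proteins, each with a pair of RNA recognition motifs and a glycine-rich tail. HNRNPA2B1, which also binds microRNAs and has been described as a reader of methylated adenosine, was the most abundant member per kilobase of transcript in both groups (908 ± 19.2 CPM per kb in shSCUBE3 and 1632 ± 31.2 CPM per kb in scramble). Levels and ranks per kilobase, here and below, use the length of a chosen GENCODE v29 transcript of each gene and depend on that choice. HNRNPA2B1 had 1591, 1528 and 1543 CPM in shSCUBE3 and 2837, 2734 and 2808 CPM in scramble libraries. No shSCUBE3 library came near the lowest scramble library, and the log2 fold change was -0.90 ± 0.03 (SE; edgeR quasi-likelihood test, adjusted p = 1.18e-28). HNRNPA1, its best-studied relative and a repressor of exon inclusion, had 30.6, 32.8 and 31.9 CPM in shSCUBE3 and 43.4, 42.6 and 43.6 CPM in scramble libraries. The groups did not overlap, and the log2 fold change was -0.50 ± 0.05. HNRNPA1L2, a retrotransposed copy of HNRNPA1, had 5.51, 5.88 and 5.53 CPM in shSCUBE3 and 14.2, 13.0 and 13.7 CPM in scramble libraries. Here too each group was tight and separate (-1.33 ± 0.10). HNRNPA0, which binds AU-rich elements, and HNRNPA3 changed less, with log2 fold changes of -0.39 ± 0.03 and -0.23 ± 0.04. All 5 A/B genes were lower in shSCUBE3 libraries.

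The level of HNRNPA1 ranked 28 of 31 per kilobase in both groups (7.70 ± 0.271 CPM per kb in shSCUBE3 and 10.5 ± 0.135 CPM per kb in scramble). Reads that align to several places are held in a summary line of the deposited files, and HNRNPA1 has many near copies in the genome. In GENCODE v29 transcripts, 93.7% of the 50-base windows of the HNRNPA1 coding sequence occur unchanged in a gene at another locus, counting 56 such genes, and 29.1% of the windows of its whole transcript do. The same share of coding windows was 89.8% for HNRNPA3, 52.7% for HNRNPC, 51.4% for HNRNPA1L2, 28.6% for HNRNPK, 27.9% for SRSF6 and 22.2% for HNRNPL, and 0 for HNRNPA2B1, HNRNPF, HNRNPM and HNRNPUL1. The shares of multiply aligned reads differed between the groups, at 29.4% ± 0.175 of each file's total in shSCUBE3 and 34.1% ± 0.106 in scramble libraries (SD, n = 3 each), with no overlap. The counts of HNRNPA1, HNRNPA1L2, HNRNPA3 and HNRNPC are therefore uncertain. Among the 27 tested members with at most 20% of transcript windows shared with another locus, 23 were lower, 2 were higher and 2 were not called, with the same median of -0.59.

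**Figure D2:**
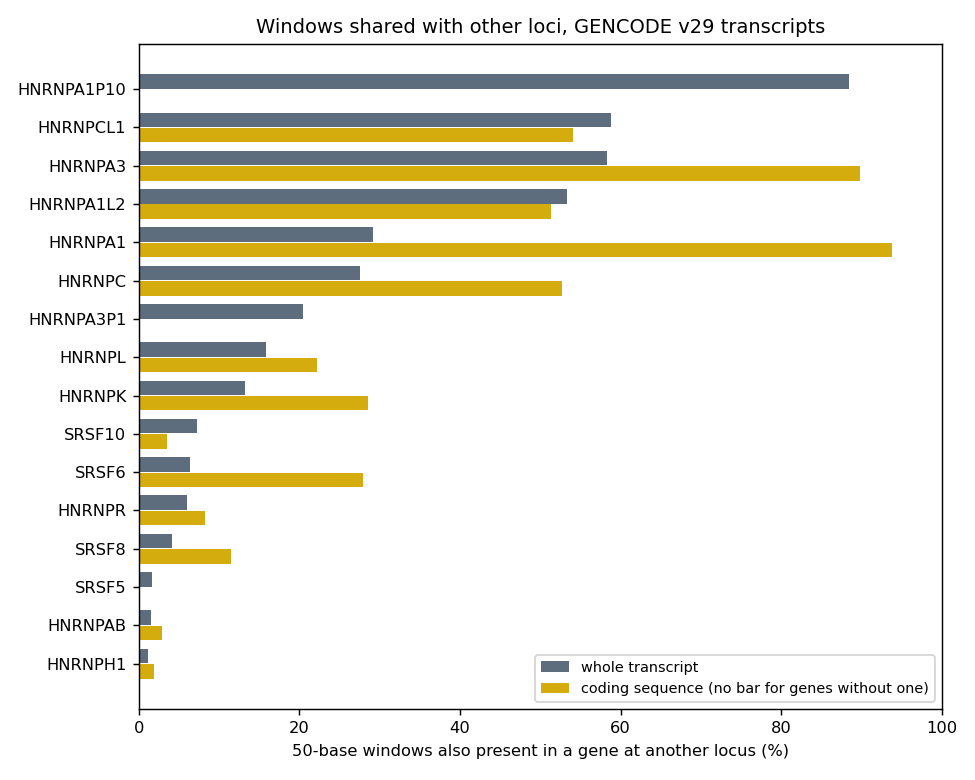
Share of 50-base windows that also occur in a gene at another locus, in percent, for members with at least 1% of transcript windows shared. Grey bars are the whole GENCODE v29 transcript and yellow bars its coding sequence. HNRNPA1 stands at 93.7% for the coding sequence and 29.1% for the whole transcript.

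Outside the A/B group the strongest decreases lay in HNRNPR, HNRNPH3, HNRNPUL1 and HNRNPH1. HNRNPR, an RNA-binding protein related to SYNCRIP that takes part in mRNA transport and processing, had 297, 280.0 and 285 CPM in shSCUBE3 and 759, 694 and 718 CPM in scramble libraries. Its highest shSCUBE3 library was far below the lowest scramble library, and its log2 fold change of -1.38 ± 0.03 was the most negative of all members (edgeR quasi-likelihood test, adjusted p = 4.46e-32). HNRNPUL1, a relative of HNRNPU with roles in RNA processing and the DNA damage response, had 509.5, 524 and 533 CPM in shSCUBE3 and 1297, 1251 and 1245 CPM in scramble libraries. The groups were separate (-1.33 ± 0.03).

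The F/H group binds runs of guanines. HNRNPH1, its most abundant member per kilobase, had 549, 547 and 562 CPM in shSCUBE3 and 1272, 1208 and 1267 CPM in scramble libraries. HNRNPH3, a shorter relative, had 218, 228 and 224 CPM in shSCUBE3 and 577, 531 and 562 CPM in scramble libraries. Both were well separated by group, with log2 fold changes of -1.23 ± 0.03 and -1.37 ± 0.03. HNRNPF was lower by less, at 442 ± 3.71 CPM in shSCUBE3 and 680.1 ± 7.93 CPM in scramble libraries (-0.67 ± 0.03). HNRNPH2, the X-linked copy, had only 8, 13 and 9 reads in shSCUBE3 and 12, 13 and 9 reads in scramble libraries. These overlapped, and the 95% interval of its log2 fold change ran from -1.15 to 0.45 (edgeR adjusted p = 0.402). A change like that of HNRNPF was thus not detectable at these counts. Of the HNRNPH2 transcript's windows, 14.5% lie also in an overlapping gene, so its count is uncertain as well.

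HNRNPC, whose tetramers bind uridine tracts and keep Alu elements out of mature mRNA, had 329.9, 322 and 322 CPM in shSCUBE3 and 663, 659.9 and 661 CPM in scramble libraries. The libraries of each group were almost alike, and the log2 fold change was -1.08 ± 0.03. HNRNPU, the scaffold attachment factor that binds chromatin and RNA, had 814, 808 and 805 CPM in shSCUBE3 and 1472, 1434 and 1479 CPM in scramble libraries. The groups were again apart (-0.90 ± 0.03). HNRNPUL2, its other relative, had 71.4, 73.0 and 72.7 CPM in shSCUBE3 and 67.8, 65.8 and 64.5 CPM in scramble libraries. These did not overlap, but the log2 fold change of 0.08 ± 0.04 did not pass the test (edgeR quasi-likelihood, adjusted p = 0.0900), and scaling by library totals alone made it 0.13 with an adjusted p of 0.00636. The transcript of HNRNPUL2 shares 45.2% of its windows with an overlapping gene.

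A further 3 hnRNP genes were lower to a like degree. HNRNPAB, a relative of HNRNPD, had 303 ± 4.52 CPM in shSCUBE3 and 546 ± 32.1 CPM in scramble libraries (log2 fold change -0.90 ± 0.03). HNRNPM, which binds GU-rich sequence and has been tied to CD44 splicing in breast cancer cells, had 411 ± 3.35 CPM in shSCUBE3 and 721 ± 15.9 CPM in scramble libraries (-0.86 ± 0.03). HNRNPD, the AU-rich element decay factor AUF1, had 431 ± 6.01 CPM in shSCUBE3 and 628 ± 10.7 CPM in scramble libraries (-0.59 ± 0.03). The pseudogene HNRNPKP3 was lower at low counts, with 24, 18 and 21 reads in shSCUBE3 and 50, 31 and 38 reads in scramble libraries (-1.09 ± 0.25).

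HNRNPL and HNRNPK were the members that rose. HNRNPL, which binds CA repeats and represses the variable exons of CD45 in T cells, had 183, 185 and 173 CPM in shSCUBE3 and 109, 119 and 106 CPM in scramble libraries. Every shSCUBE3 library was above every scramble library, and the log2 fold change was 0.65 ± 0.04 (edgeR quasi-likelihood test, adjusted p = 1.23e-17). HNRNPK, the poly(C)-binding protein with KH domains that also acts with p53, had 476, 459.5 and 459 CPM in shSCUBE3 and 382, 418 and 391 CPM in scramble libraries. These too were separate, by a smaller margin (0.18 ± 0.03, edgeR adjusted p = 2.74e-06). Per kilobase HNRNPK ranked 9 of 31 in shSCUBE3 and 16 in scramble libraries, and HNRNPL ranked 19 in shSCUBE3 and 24 in scramble. HNRNPR ranked 15 in shSCUBE3 and 8 in scramble libraries, and HNRNPUL1 10 in shSCUBE3 and 5 in scramble.

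**Figure D3:**
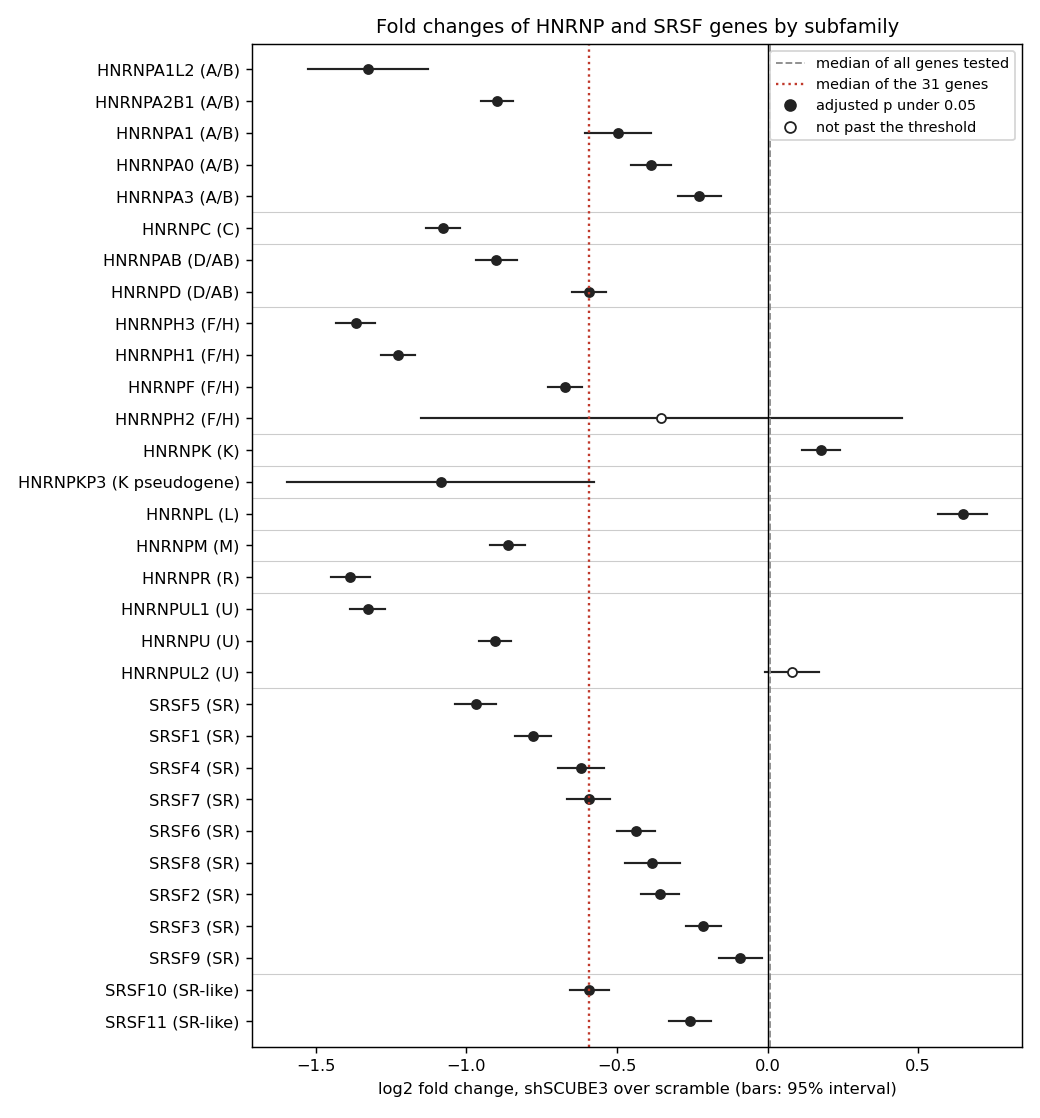
The log2 fold change (shSCUBE3 over scramble, edgeR) of each tested member with its 95% interval, grouped by subfamily. Filled points passed an adjusted p of 0.05 and open points, HNRNPH2 and HNRNPUL2, did not. The dotted line is the median of the 31 genes (-0.59) and the dashed line that of all genes tested (0.01).

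Among SR genes the decrease was smaller and graded. SRSF5, first described as an insulin-induced gene in rat liver, changed most, with 159.7 ± 1.11 CPM in shSCUBE3 and 301 ± 11.8 CPM in scramble libraries (-0.97 ± 0.03). SRSF1, the founding SR protein ASF/SF2 and an oncogene in breast epithelium, had 484, 473 and 483 CPM in shSCUBE3 and 828, 772 and 786 CPM in scramble libraries. Its groups were far apart (-0.78 ± 0.03, edgeR quasi-likelihood adjusted p = 5.38e-25), although 91.9% of its transcript windows lie also in an overlapping gene model. Such models also hold 38.9% of the windows of SRSF9, 29.5% of those of SRSF2 and 21.1% of those of HNRNPL, so these counts are uncertain as well. SRSF2, the speckle protein SC35, had 339.8, 358 and 357 CPM in shSCUBE3 and 417, 452 and 435 CPM in scramble libraries. SRSF3, the smallest SR protein and an adaptor for mRNA export, had 356, 356 and 354 CPM in shSCUBE3 and 396, 400.2 and 396 CPM in scramble libraries. Both were separate by group with modest changes (-0.36 ± 0.03 and -0.21 ± 0.03), and that of SRSF3 did not pass after a correction for GC content and length (-0.01, edgeR adjusted p = 0.590).

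The other SR genes were spread over a like range. SRSF4 and SRSF6, which like SRSF5 carry a pair of RNA recognition motifs, changed by -0.62 ± 0.04 and -0.44 ± 0.03 on the log2 scale. SRSF7, a zinc-knuckle relative of SRSF3, changed by -0.59 ± 0.04, and SRSF8, a retrotransposed copy of SRSF2, by -0.38 ± 0.04. The SR-like genes SRSF10, a repressor when dephosphorylated, and SRSF11, tied to microexons in neurons, changed by -0.59 ± 0.03 and -0.26 ± 0.03. Under the same correction SRSF11 did not pass either (-0.05, edgeR adjusted p = 0.0969). SRSF9, the closest relative of SRSF1, had 190.7 ± 4.20 CPM in shSCUBE3 and 196 ± 8.86 CPM in scramble libraries, which overlapped. Its log2 fold change was -0.09 ± 0.04 (edgeR quasi-likelihood adjusted p = 0.0180) and did not pass with library totals as the scale (adjusted p = 0.298), nor without shSCUBE3 replicate 1 (0.108), shSCUBE3 replicate 3 (0.0578) or scramble replicate 1 (0.131).

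Correcting for transcript GC content and length also changed the size of the log2 fold change of other members. HNRNPA0 moved to -0.11, HNRNPA3 to -0.12, SRSF6 and SRSF8 to -0.24, SRSF9 to -0.22 and HNRNPK to 0.32, and these still passed. The median over the members was then -0.51.

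Because related genes were read in the same library, the ratio of their counts does not depend on library scaling. Of 19 pairs of related genes, 18 had ratios that did not overlap between the groups, each with an exact two-sided permutation p of 0.1, the smallest that 3 against 3 libraries allow (0.106 after Benjamini-Hochberg adjustment over the pairs). The levels of 85.9% of all single genes also did not overlap, so the count of pairs is not a result about them, and the ratios are given for their size. The HNRNPUL1 to HNRNPUL2 ratio differed most, at 7.21 ± 0.0960 in shSCUBE3 and 19.1 ± 0.159 in scramble libraries (SD, n = 3 each). HNRNPU to HNRNPUL2 stood at 11.2 ± 0.188 in shSCUBE3 and 22.1 ± 0.690 in scramble libraries. The read ratio of HNRNPK to PCBP2, another poly(C)-binding protein, was 1.96 ± 0.0571 in shSCUBE3 and 0.851 ± 0.0402 in scramble libraries. These ratios are of reads, with no correction for transcript length. The counts of HNRNPUL2, HNRNPL, HNRNPA3, HNRNPC, SRSF1, SRSF2 and SRSF9 are uncertain for the shared windows given above. Ratios here and below that hold them are uncertain as well.

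The ratio of HNRNPL to PTBP1, the polypyrimidine tract-binding protein, was 0.355 ± 0.0154 in shSCUBE3 and 0.208 ± 0.0117 in scramble libraries, and its ratio to HNRPLL was 3.62 ± 0.242 in shSCUBE3 and 2.39 ± 0.128 in scramble libraries. SRSF1 to SRSF9 stood at 2.52 ± 0.0842 in shSCUBE3 and 4.06 ± 0.0335 in scramble libraries. HNRNPA2B1 to HNRNPA3 stood at 11.5 ± 0.229 in shSCUBE3 and 18.3 ± 0.448 in scramble libraries, and HNRNPC to RALY at 1.48 ± 0.0687 in shSCUBE3 and 2.39 ± 0.0440 in scramble. The exception was SRSF2 to its copy SRSF8, at 6.02 ± 0.157 in shSCUBE3 and 5.92 ± 0.265 in scramble libraries, which overlapped (exact permutation p = 0.6, n = 3 per group).

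**Figure D4:**
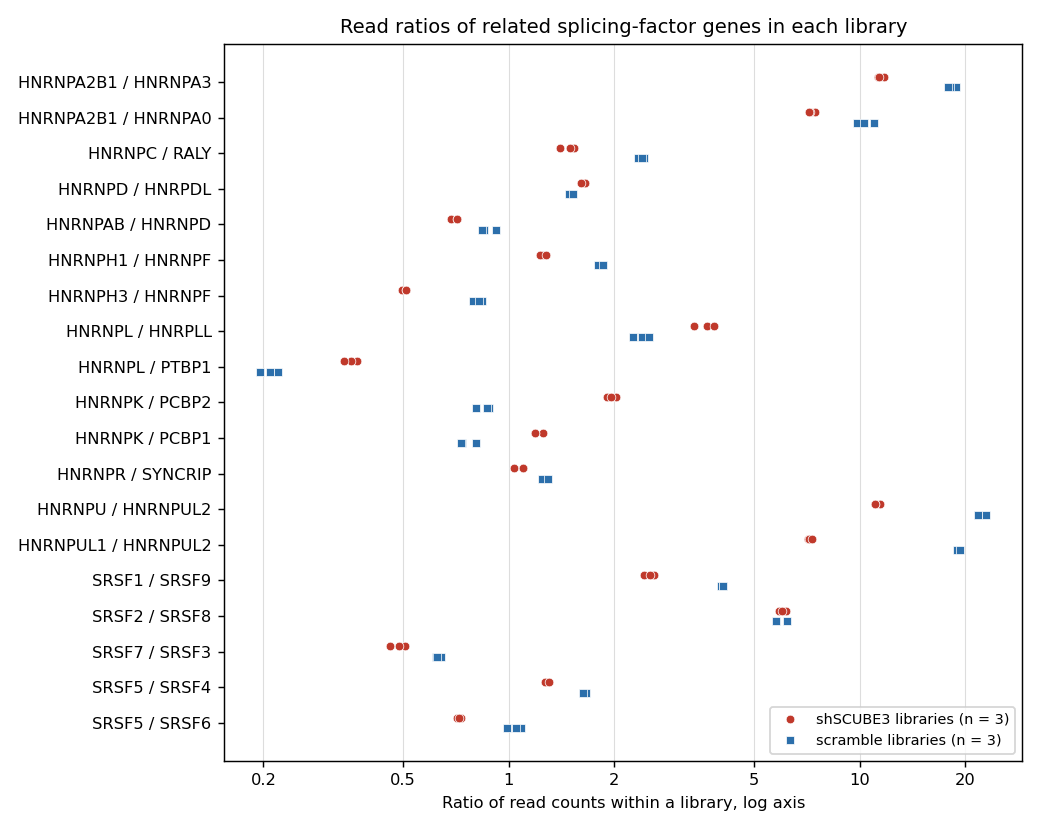
Ratio of read counts within each library for 19 pairs of related genes (log axis). Circles are the 3 shSCUBE3 and squares the 3 scramble libraries. Only SRSF2 / SRSF8 overlaps between the groups, and the HNRNPUL1 / HNRNPUL2 ratios lie farthest apart, at 7.21 on average in shSCUBE3 and 19.1 in scramble libraries.

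The tested members lie on 16 chromosomes, so they were set beside their neighbours in RefSeq's gene order (10 tested genes on each side that are not members). The median log2 fold change of these 20 neighbours ran from -2.23 around HNRNPA1 to 0.94 around SRSF3, with a median of -0.16 over the members. In all, 25 members lay below their neighbours' median and 6 above it (HNRNPA1, HNRNPA3, HNRNPK, HNRNPL, HNRNPUL2 and SRSF8). The same share over all tested genes was not computed, so these counts have no reference. Members close together, such as HNRNPR and SRSF10 or HNRNPAB and HNRNPH1, also share neighbours. HNRNPH1, HNRNPUL1 and SRSF3 were lower than all 20 of their neighbours. HNRNPA2B1 starts 697 bases from CBX3, a heterochromatin protein gene read in the opposite direction, and CBX3 had 234.7 ± 10.2 CPM in shSCUBE3 and 228 ± 1.98 CPM in scramble libraries (log2 fold change -0.01 ± 0.03, edgeR adjusted p = 0.801). The head-to-head partners of HNRNPK (RMI1), SRSF9 (DYNLL1), HNRNPUL2 (TTC9C) and HNRNPH2 (GLA) changed by 0.49 ± 0.05, 0.20 ± 0.03, 0.42 ± 0.07 and 0.64 ± 0.05.

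Promoter sequence was searched for the 31 tested members and matched for 28 of them in RefSeq (GRCh38.p14). HNRNPA1, SRSF2 and HNRNPKP3 had no match. The sequence covered the 250 bases before an annotated transcript start. For SRSF11 and HNRNPF these bases lie inside the span of the gene and not before its outermost start. The members were set beside all 35116 promoters, which include genes not tested here and may hold several promoters of a gene. Shares over the tested genes alone were not computed. A CCAAT box (letters CCAAT, either strand) occurred in 14 of the 28 (50.0%) and in 32.0% of all 35116 promoters. A GC box (GGGCGG) occurred in 17 (60.7%) and in 42.6% of all, an E-box (CACGTG) in 5 (17.9%) and in 6.34%, an ETS motif (CCGGAAG) in 4 (14.3%) and in 8.52%, and a TATA box (TATAAA) in 5 (17.9%) and in 10.7%. The median GC content was 64.2% over the members and 58.0% over all promoters. Matches on both strands were counted, overlapping ones included, and are matches of letters, not measured binding. The promoters of the member that fell most, of the most abundant member and of the member that rose most are printed 5′ to 3′ along the gene, with capitals at these motifs on either strand (ATTGG is CCAAT, and CCGCCC is GGGCGG, read on the other strand).
HNRNPR, chr1:23344285-23344534, minus strand: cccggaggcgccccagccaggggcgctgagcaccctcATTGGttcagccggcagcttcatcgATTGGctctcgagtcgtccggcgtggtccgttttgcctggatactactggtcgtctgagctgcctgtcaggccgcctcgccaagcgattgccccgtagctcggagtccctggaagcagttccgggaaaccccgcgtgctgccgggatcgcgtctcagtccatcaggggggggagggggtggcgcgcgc
HNRNPA2B1, chr7:26200747-26200996, minus strand: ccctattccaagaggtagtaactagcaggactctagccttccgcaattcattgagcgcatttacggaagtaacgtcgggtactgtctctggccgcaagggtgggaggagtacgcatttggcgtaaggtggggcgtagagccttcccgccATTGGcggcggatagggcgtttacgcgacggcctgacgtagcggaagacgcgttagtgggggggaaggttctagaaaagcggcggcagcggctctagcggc
HNRNPL, chr19:38852348-38852597, minus strand: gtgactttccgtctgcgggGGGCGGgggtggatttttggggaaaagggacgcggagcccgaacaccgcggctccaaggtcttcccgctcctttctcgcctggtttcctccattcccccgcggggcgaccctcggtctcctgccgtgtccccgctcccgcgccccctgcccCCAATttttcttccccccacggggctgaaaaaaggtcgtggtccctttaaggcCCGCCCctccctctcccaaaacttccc
HNRNPR, which was lower in shSCUBE3 libraries, holds 2 CCAAT boxes, HNRNPA2B1, also lower, holds 1, and HNRNPL, which was higher, holds 1 CCAAT box and 2 GC boxes.

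Lower calls were also frequent among other genes of RNA processing, where 42.5% of all tested genes were lower and 43.4% higher. Of 48 core spliceosome genes 38 were lower in shSCUBE3 libraries, 9 higher and 1 not called (79.2% lower), with a median log2 fold change of -0.69. Among them were DHX38, a helicase of the second splicing step (-1.55 ± 0.04), SF3B4, a subunit of the U2 particle (-1.49 ± 0.04), and SNRNP70, the U1 70K protein that SR proteins contact (-1.41 ± 0.03). Of 46 other splicing regulators 40 were lower and 6 higher (87.0% lower, median -0.61). SFPQ, a paraspeckle protein (-1.54 ± 0.03), PNN (-1.42 ± 0.03) and TAF15 (-1.30 ± 0.03) had the smallest adjusted p-values of that list. Its highest gene was ESRP2 (2.54 ± 0.16), at 8.13 ± 0.212 CPM in shSCUBE3 and 1.34 ± 0.252 CPM in scramble libraries. Of 16 hnRNP relatives outside the prefix, 10 were lower, 4 higher and 2 not called (62.5% lower, median -0.61), with FUBP1 (-1.88 ± 0.04), FUBP3 (-1.22 ± 0.03) and SYNCRIP (-1.15 ± 0.03) first by adjusted p. PCBP3 was the highest of them (5.17 ± 0.40), at 2.92 ± 0.421 CPM in shSCUBE3 and 0.0755 ± 0.0683 CPM in scramble libraries. HNRPDL (-0.72 ± 0.03) and HNRPLL (0.05 ± 0.05) stand in the files under these older symbols, which the prefix HNRNP does not match. Of 14 genes of nonsense-mediated decay, which removes transcripts with the unproductive exons of SR genes, 11 were lower and 3 higher (78.6% lower, median -0.43), with RBM8A (-1.53 ± 0.04) and SMG6 (-0.67 ± 0.04) among the lower ones. Of 19 genes listed as SR protein kinases, phosphatases and transport factors, 6 were lower, 11 higher and 2 not called (31.6% lower and 57.9% higher, median 0.15). Not all genes of this list act on SR proteins alone. The SR protein kinase SRPK1 was among the higher ones, at 643 ± 1.80 CPM in shSCUBE3 and 373 ± 8.91 CPM in scramble libraries (0.73 ± 0.03), while TNPO1 (-0.55 ± 0.03), an import receptor for hnRNP A1, and CLK3 (-0.76 ± 0.05), a kinase of SR proteins, were lower.

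**Figure D5:**
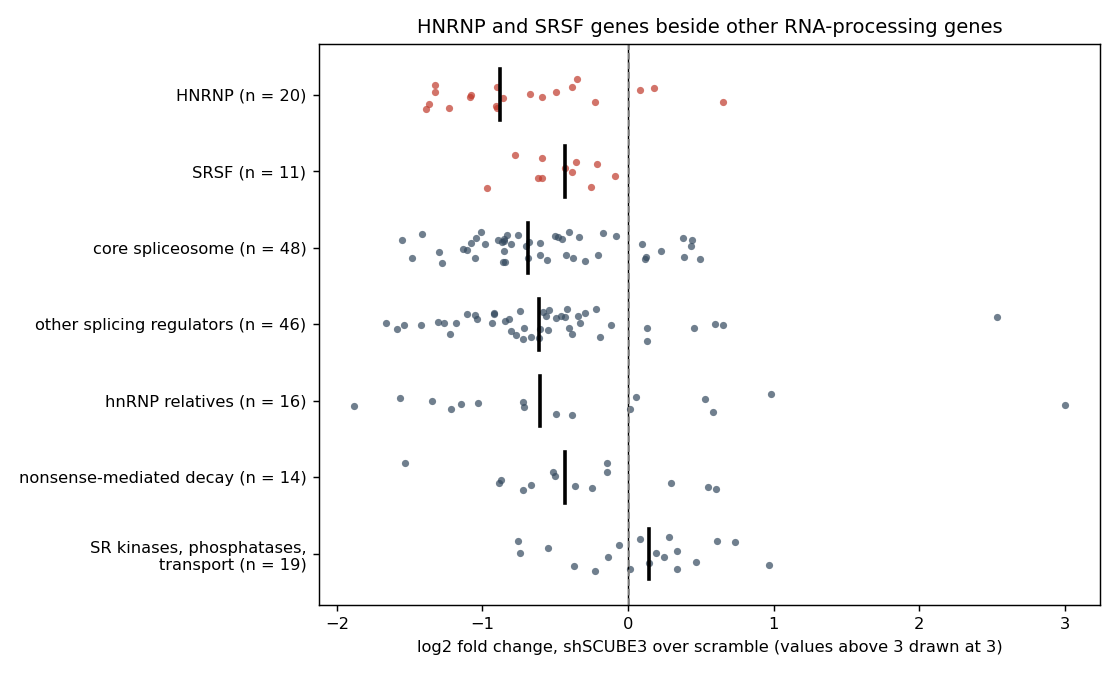
The log2 fold change (shSCUBE3 over scramble) of each tested HNRNP and SRSF gene and of the genes of 5 other RNA-processing lists. Vertical bars are the medians, the dashed line is the median of all genes tested (0.01), and the value above 3, that of PCBP3, is drawn at 3. The medians of the core spliceosome and of the other splicing regulators lie at -0.69 and -0.61, and that of the SR kinases, phosphatases and transport genes at 0.15.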

How the data were processed

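Polyadenylated RNA was read as single reads of 50 bases after a stranded mRNA kit, per the labels' protocols. Per the submitters' processing notes, the authors used bcl2fastq, TopHat2 2.0.8b and HTSeq with hg19. HTSeq's strand setting, its overlap mode and the gene annotation are absent from the sources used here. Overlapping and antisense genes are therefore uncertain. What the authors deposited is, in each file, raw counts by gene symbol for 1 library; 5 summary lines per file were left out of library totals and tests. Those lines include reads in no gene (11.1% ± 0.0540 of the total in shSCUBE3 and 14.7% ± 0.275 in scramble libraries, SD, n = 3 each).

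CPM are counts over the library's total in genes. Groups came from the titles. All 13606 genes kept by filterByExpr were fitted with edgeR 4.0.16 (R 4.3.3; TMM, robust quasi-likelihood F test, two-sided), with Benjamini-Hochberg adjustment over all of them and a threshold of 0.05; members were read from that fit. A ± after a log2 fold change is its standard error, the fold change over the root of F. The common dispersion was 0.00103, a coefficient of variation of 3.21%. The procedure was tested on simulated counts in which few genes changed, with equal numbers up and down. In these data 85.9% of tested genes were called, a setting that the simulation does not cover. Counts carry no molecular identifiers, so floors cover counting error only. Pairs of libraries within a group had a chi-square of 1.67 to 3.45 per degree of freedom, above sampling noise, and none were merged.

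Values per library were given for the 6 called members with the largest change each way at 5 CPM or more in the higher group, the members not called and 8 textbook members, and up to 3 genes per other list by adjusted p. PCBP3 and ESRP2 were named as the highest of their lists. The members, lists and alternatives were chosen with earlier results of these data known. Windows of 50 bases were compared over GENCODE v29 transcripts, and gene order and promoters came from RefSeq's GRCh38.p14; none of these coordinates were joined to the counts, which were made on hg19. Alternatives were other scalings, filters, tests (DESeq2 1.42.0, limma-voom 3.58.1) and thresholds, each library left out, a replicate block, a GC and length correction (12994 genes, 95.5% of those tested), and members with few shared windows. Some of the chosen items are not reported here.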

Additional observations from a re-analysis of the deposited data

Results flagged for a closer look

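Reads lying in more than 1 gene, which the files hold in a summary line outside the gene counts, made up 0.593% ± 0.00441 of the total in shSCUBE3 and 0.537% ± 0.00504 in scramble libraries (SD, n = 3 each), with no overlap. They are listed here because they stand outside the gene counts and were higher than in the control libraries. SRSF1, HNRNPUL2, SRSF9 and SRSF2 are the tested members with the most windows in an overlapping gene model, at 91.9%, 45.2%, 38.9% and 29.5%, and the part of such reads in their values was not tested.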

How the results depend on the processing

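The number of members called was 29 and lay between 27 and 29 under every other scaling, filter, test or threshold tried, except the test against a 1.5-fold change, which called 15 members and 6251 genes in all where 11681 were called without it. Leaving out 1 library gave 28 to 29 members. Restricting to members with at least 80% of windows in no other gene gave 21 calls among 22 tested (20 lower, 1 higher), and with at least 80% at no other locus, an alternative added after seeing the data, 25 among 27. Of all 13606 tested genes 85.9% were called, and 42.5% were lower. The number of members called is therefore not by itself a result about them. Single members gave 464 values under the alternatives other than the 0.01 threshold and the test against a 1.5-fold change. Of these, 457 kept their direction and side of the threshold and 0 changed sign. A further 6 no longer passed (SRSF3 and SRSF11 under the GC and length correction, SRSF9 under 4 settings), and 1 passed newly (HNRNPUL2 with library totals). The cause was not tested. At the 0.01 threshold SRSF9 also lost its call. SCUBE3 ran from -0.0503 without scramble replicate 3, where its sign reversed, to 0.0796 without scramble replicate 2, on the log2 scale, and passed under none of the settings. Same-numbered libraries showed no shared deviation (correlations of 0.017, 0.0064 and 0.00067), which cannot tell whether they were prepared as pairs. With the replicate number as a block, 29 members and 11706 genes were called, and SCUBE3 was at 0.0245. Low counts limited the test of HNRNPH2, and HNRNPA3P1 and SRSF12 had too few reads to be tested.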

Other observations

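Within the kinases of SR proteins the relatives did not move alike. These genes were singled out after their values were seen. CLK1, CLK2 and CLK3, dual-specificity kinases that release SR proteins from speckles, were lower, with log2 fold changes of -0.37 ± 0.04, -0.74 ± 0.06 and -0.76 ± 0.05 (SE, edgeR). CLK4 was higher, at 27.0 ± 0.731 CPM in shSCUBE3 and 20.6 ± 1.10 CPM in scramble libraries (SD, n = 3 each; 0.34 ± 0.07), as were SRPK2 (0.15 ± 0.05) and DYRK1B (0.97 ± 0.11). TNPO3, the import receptor of phosphorylated SR proteins, was higher (0.47 ± 0.04), while TNPO1, the receptor of hnRNP A1, was lower. Among core spliceosome genes, SNRPB, which encodes the Sm proteins B and B', was the one with the largest increase, at 379 ± 7.96 CPM in shSCUBE3 and 260.0 ± 10.7 CPM in scramble libraries (0.49 ± 0.03). Of the other genes of the Sm ring, SNRPE was also higher (0.38 ± 0.07), and SNRPD2, SNRPD1, SNRPD3, SNRPF and SNRPG were lower (-0.40 ± 0.03, -0.80 ± 0.04, -1.04 ± 0.04, -1.28 ± 0.04 and -1.30 ± 0.07).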
